A study of Mus musculus with 7 samples.

Results

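Keratins 7, 8, 18 and 19 (Krt7, Krt8, Krt18 and Krt19) are the filament proteins of simple, single-layered epithelia. They were chosen by name as the 4 simple epithelial keratin genes of 46 keratin genes and 33864 genes listed in 3 count tables of single mouse pancreas cells. The rule uses no measured value, although earlier results of these data were known when the genes were picked. The study collected droplet-based single-cell RNA-seq of whole dissociated pancreas from 7 C57BL/6 mice aged 2 months, each with 1 library. The WT group (2 mice) carried no reprogramming transgene and the i4F group (3 mice) carried, both heterozygous, a doxycycline-inducible cassette of the 4 Yamanaka factors inserted in Pparg and the rtTA activator in the ubiquitously active Rosa26 locus, so induction was not limited to 1 cell type. Both groups drank doxycycline at 1 mg/ml with 7.5% sucrose for 7 days. The caerulein group (2 mice) received that cholecystokinin analogue, which injures acinar cells, at 100 µg/kg in 7 hourly injections on each of 2 days and was killed on day 4. The labels give no doxycycline or sucrose for the caerulein mice and no injections for the WT mice. Caerulein against WT therefore also differs in these, and their parts cannot be told apart. WT 1 and the i4F mice belong to 1 series of library names (AL), and WT 2 and the caerulein mice to another (AM), so neither treatment group has mice in both.

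Keratins assemble as pairs of a type II and a type I chain. In simple epithelia the type II keratin Krt8 pairs mainly with the type I keratin Krt18, while Krt7 (type II) and Krt19 (type I) are added in ducts and in some other epithelia. In the healthy pancreas the enzyme-secreting acinar cells hold Krt8 and Krt18, duct cells hold all 4, and the mesothelium, the flat covering of the organ, also carries simple keratins. Acinar cells that take on duct-like features, as in acinar-to-ductal metaplasia after injury, are classically recognised by Krt19.

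On the mouse genome GRCm38, in the GENCODE M21 annotation, 3 of the 4 genes lie on chromosome 15. Krt7 is at chr15:101411043-101430313 on the plus strand, Krt8 at chr15:101996698-102004482 on the minus strand and Krt18 at chr15:102028180-102032027 on the plus strand. Krt8 and Krt18 are neighbours 23697 bases apart and point away from each other, whereas Krt7 lies 566384 bases from Krt8. Krt19 lies apart from them among the type I keratins, at chr11:100140810-100148665 on the minus strand. The 250 bases before the RefSeq start of Krt7, Krt8 and Krt18 are shown because these 3 genes lie within 1 stretch of chromosome 15. Over the cell types Krt8 and Krt18 were closer to each other (Pearson r = 0.962) than Krt7 was to Krt8 (0.828) or Krt18 (0.789). The sequences are RefSeq on GRCm38.p6, 5′ to 3′ on the gene's own strand. They lie at chr15:101412153-101412402 on the plus strand for Krt7, chr15:102004343-102004592 on the minus strand for Krt8 and chr15:102027966-102028215 on the plus strand for Krt18. RefSeq and GENCODE set different starts, so the Krt7 window lies inside the GENCODE gene given above. The windows of Krt8 and Krt18 overlap their GENCODE genes in part. Capitals mark GGGCGG or its reverse complement CCGCCC, the core of a GC box.

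Krt7 promoter: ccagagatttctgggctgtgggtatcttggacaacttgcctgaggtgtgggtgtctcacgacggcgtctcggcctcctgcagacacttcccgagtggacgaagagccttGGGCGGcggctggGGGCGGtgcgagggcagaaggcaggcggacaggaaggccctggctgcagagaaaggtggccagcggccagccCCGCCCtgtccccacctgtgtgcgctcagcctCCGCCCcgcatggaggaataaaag
Krt8 promoter: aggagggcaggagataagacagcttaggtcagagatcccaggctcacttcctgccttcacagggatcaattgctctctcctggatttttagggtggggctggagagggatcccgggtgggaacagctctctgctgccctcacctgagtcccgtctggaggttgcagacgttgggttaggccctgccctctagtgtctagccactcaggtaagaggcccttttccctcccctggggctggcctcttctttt
Krt18 promoter: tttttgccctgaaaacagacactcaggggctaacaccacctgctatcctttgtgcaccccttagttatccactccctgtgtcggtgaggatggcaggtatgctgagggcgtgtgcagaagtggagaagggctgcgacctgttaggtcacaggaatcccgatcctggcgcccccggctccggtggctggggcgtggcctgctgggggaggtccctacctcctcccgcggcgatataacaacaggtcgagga

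The Krt7 window held 4 matches to GGGCGG on either strand, and the windows of Krt8 and Krt18 held 0. This motif was present in 32.7% of 32851 promoter windows of the same length. CACCC matched 1 time before Krt7, 2 times before Krt8 and 1 time before Krt18, and was present in 52.0% of windows. TATAAA (12.4% of windows) and TGANTCA, the AP-1 site (6.75% of windows), had 0 matches in all 3, on both strands. The matches describe these letters only, and Krt19 had no entry in the table of promoters.

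The 7 libraries held 4327 to 15138 cells and 15469018 to 64784216 unique molecular identifiers (UMIs, each 1 counted transcript molecule), 58473 cells in all. The median depth per cell ran from 1248.5 UMIs in i4F 3, the lowest, to 4247 in i4F 1. Of the cell barcodes, 366 occurred in more than 1 library, at most 39 for any pair of libraries. The 4 genes together had 593280 UMIs, of which Krt18 gave 287592, Krt8 245904, Krt19 49224 and Krt7 10560. The pseudogene Krt8-ps, listed separately with 273 UMIs, may share reads with Krt8. Levels are given as counts per 1000000 (CPM), the UMIs of a gene per 1000000 UMIs of the cells named. Each UMI stands for 1 molecule, whatever the gene's length. Differences between genes in capture or in the assignment of reads were not tested, which limits comparisons of levels between genes. Cells were grouped by the cluster names the authors deposited, and the mouse was the replicate. The genes took part in that clustering, so their levels in a cluster against the rest are a description.

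The library i4F 3 stood apart within its group. Of its 2130 acinar cells 2071 lay in the cluster named Acinar_1 and 59 in Acinar_2, against 11 and 583 in i4F 1 and 61 and 746 in i4F 2. The keratin comparisons with i4F mice are therefore given with all 7 mice, the primary test, and without i4F 3. Setting i4F 3 aside was decided after its cell numbers were seen. It was the i4F mouse nearest to WT in acinar Krt7, Krt8 and Krt19, so the fit without it favours larger differences and less spread. In acinar cells, i4F against WT, edgeR called 32.7% of genes without i4F 3 and 0.0808% with all mice. The names were checked against markers. Of 36 acinar genes chosen as markers 17 were listed in the tables (the others were not analysed here), and their summed level in acinar cells was 93671 and 110328 CPM in the WT mice. It was 13447 and 10940 in the caerulein mice and 10710, 14944 and 20796 in Acinar_2 of i4F 1, 2 and 3. The leading genes of Acinar_2 were Ly6g6c, Sprr2b, Sprr2a3, Slurp1, Mal, Fam25c, Krt13, Reg3g, Cnfn and Nccrp1, several of them known from squamous epithelium and none of them on the list of acinar genes, which goes against its name. The acinar clusters of the i4F mice are called by their deposited names for that reason, and acinar cells are the cells of the clusters named acinar, which in i4F 1 and i4F 2 are nearly all Acinar_2. In endocrine clusters 4 of 7 endocrine markers (Sst, Ppy, Chga and Iapp) summed to at least 64144 CPM in every mouse, while Ins1, Ins2 and Gcg were not analysed here.

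In WT pancreas, duct cells had the highest levels of Krt8, Krt18 and Krt19, and the mesothelium had the highest level of Krt7. In duct cells Krt18, the type I partner of Krt8, was at 10093 and 10108 CPM in WT 1 and WT 2 (mean 10100), and Krt8 was at 8938 and 6943 (mean 7940). Krt19 was at 1126 and 911 (mean 1018), and Krt7 at 190 and 243 (mean 216). Within the duct, then, Krt8 and Krt18 were several times the level of Krt19, and Krt7 was the lowest of the 4 in both mice. Taken singly, Krt8 and Krt18 each had a UMI in 97.2% to 99.6% of duct cells in all 7 mice once each cell was thinned to 1000 UMIs.

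The WT mesothelium came next for 3 of the genes. It had Krt19 at 877 and 832 CPM, Krt18 at 1393 and 1938, Krt8 at 1043 and 1252 and Krt7 at 321 and 289. In descending order of the WT mean, Krt8 was at 7940 in duct cells, 1148 in mesothelium, 665 in acinar cells and 533 in endocrine cells, and the last 2 overlapped between mice. Krt18 was at 10100 in duct cells, 1665 in mesothelium, 1112 in acinar cells and 744 in endocrine cells. Mesothelium and acinar cells overlapped for Krt18, while the other neighbours in that order did not.

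Krt19 in WT mice had a mean of 1018 in duct cells, 855 in mesothelium, 64.9 in acinar cells and 18.3 in endocrine cells, with no overlap between neighbours. Krt7 was ordered differently, with 305 in mesothelium, 226 in endocrine cells and 216 in duct cells, the last 2 overlapping, and 3.18 in acinar cells. Endocrine cells thus carried about as much Krt7 as duct cells and little Krt19, and WT acinar cells had 3 and 2 Krt7 UMIs in all, which is 3.91 and 2.45 CPM. Macrophages, which are not epithelial, had Krt8 at 41.5 and 30.5 in WT, 37.0, 37.5 and 103 in i4F and 28.6 and 31.4 in caerulein mice. Their Krt19 was at 9.22 and 4.07 in WT, 12.5, 16.1 and 19.4 in i4F and 5.66 and 6.78 in caerulein mice, and low levels in other classes are read against these. The class pools the clusters named macrophages, and in WT mice Macrophages_2 (59 and 96 cells) is led by genes known from dendritic cells, such as H2-Ab1, Cd74 and Ccr7. In Macrophages_1 alone Krt8 was at 17.8 and 28.8 and Krt19 at 0 and 2.98 in WT mice.

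**Figure D1:**
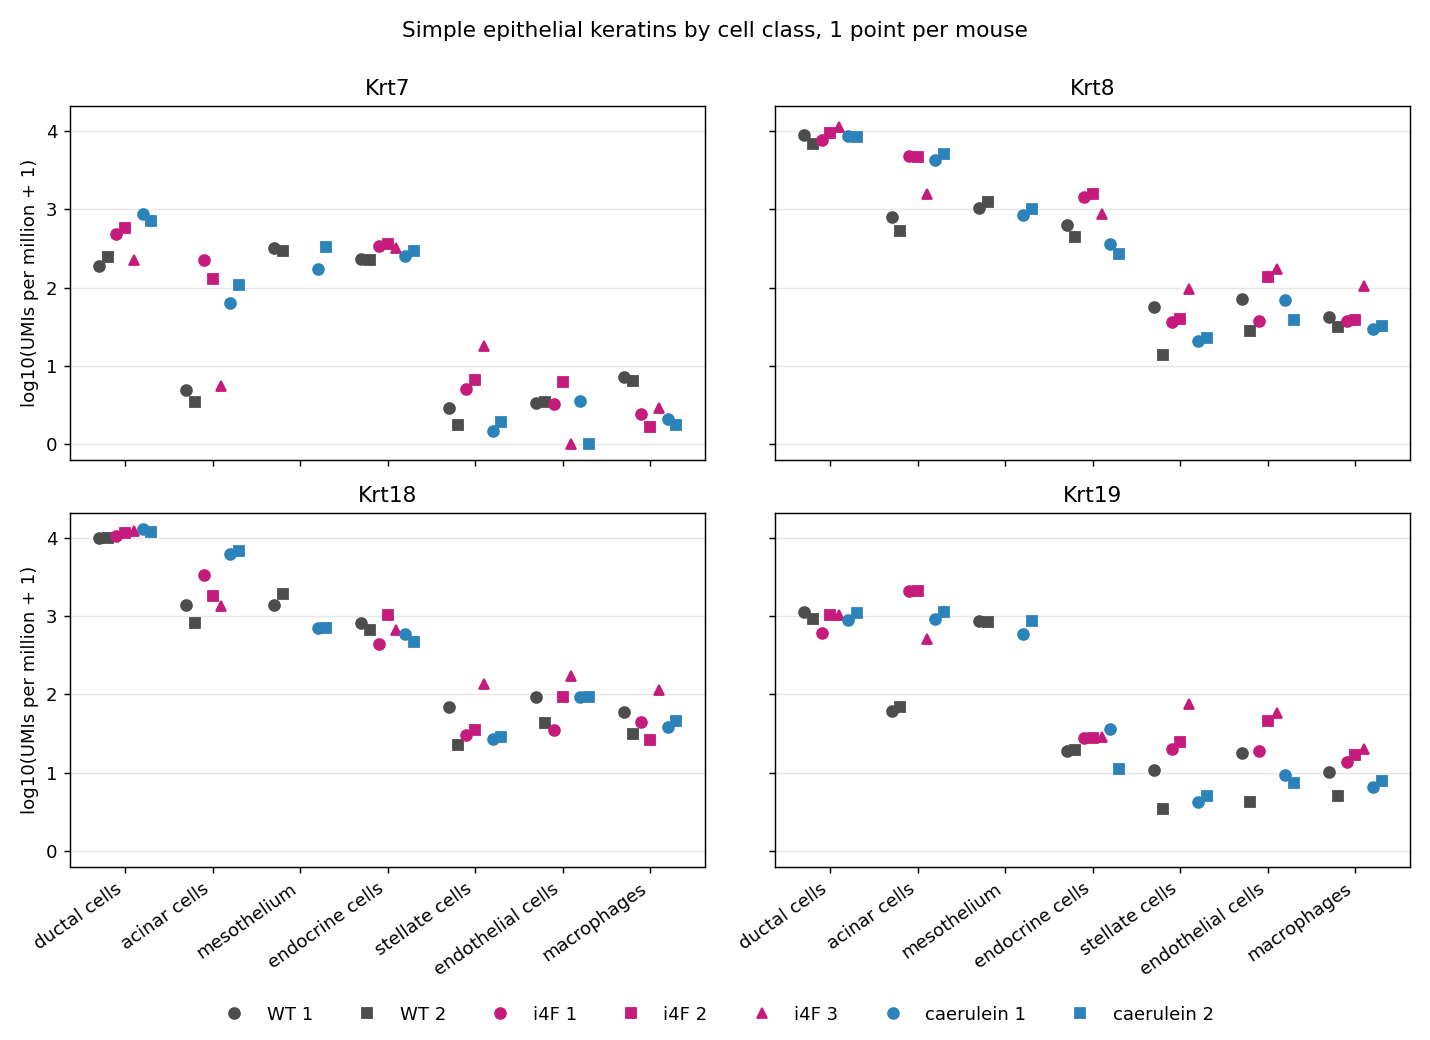
Levels of Krt7, Krt8, Krt18 and Krt19 in 7 cell classes, as log10 of CPM plus 1 (vertical axis, log scale), with 1 point per mouse coloured by group. Krt8 and Krt18 are highest in duct cells in every group, while Krt19 in acinar cells runs from 61.2 and 68.5 CPM in WT mice to 2109 in i4F 1 and i4F 2.

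In acinar cells all 4 keratins had higher levels in caerulein mice than in WT mice, and 3 of the 4 (Krt7, Krt8 and Krt19) had higher levels in i4F mice, with no overlap between the groups. The share of all genes without overlap was not computed. With so few mice these counts are a description and are not read as a result about the keratins. Krt19, the keratin of ducts, was at 61.2 and 68.5 CPM in WT 1 and WT 2. It was at 2109, 2109 and 517 in i4F 1, 2 and 3 and at 921 and 1135 in caerulein 1 and 2. Every treated mouse lay above both WT mice, and i4F 3 was the lowest of the treated mice.

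Krt8 in acinar cells was at 799 and 532 CPM in WT mice, 4818, 4636 and 1554 in i4F mice and 4278 and 5125 in the caerulein mice. Again all treated mice were above the WT mice, with i4F 3 nearest to them. Krt18 was at 1396 and 828 in WT mice, 3341, 1798 and 1369 in i4F mice and 6306 and 6884 in the caerulein mice. Here i4F 3 lay below WT 1, so the i4F and WT groups overlapped, while the caerulein mice were above every other mouse. Krt7 was at 3.91 and 2.45 in WT mice, 226, 127 and 4.50 in i4F mice and 61.9 and 107 in the caerulein mice. The i4F 3 value for Krt7 rests on 13 UMIs and is close to WT. Depth moved with the groups, with a median of 431 and 502 UMIs per acinar cell in WT, 1933, 2020 and 606 in i4F and 2213.5 and 1322.5 in caerulein mice, and the levels per cell at equal depth are given further on.

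With all 7 mice in 1 edgeR quasi-likelihood fit, 0 of the 4 keratins passed an adjusted p of 0.05 for i4F against WT in acinar cells. In that comparison 0.0808% of the 11134 genes tested passed. At an unadjusted p under 0.05 the count was 3 of 4, against 25.1% of all genes, and DESeq2 called 3 of 4, against 9.95% of the genes it gave an adjusted p. The log2 fold changes were 4.33 for Krt19 (SE 0.564, adjusted p = 0.0538), 2.22 for Krt8 (SE 0.481, adjusted p = 0.0904), 4.89 for Krt7 (SE 1.47, adjusted p = 0.123) and 0.78 for Krt18 (SE 0.456, adjusted p = 0.307). The median of the 4 was 3.28, against 0.144 for all genes tested.

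Without i4F 3 the i4F side is 583 of 594 and 746 of 807 cells from Acinar_2, the cluster whose leading genes go against its name. In that comparison Krt7, Krt8 and Krt19 rose in the cells named acinar and Krt18 did not pass the test (3 of 4 called, where 32.7% of all genes tested were called in either direction and 17.3% were called higher). Krt19 rose by 4.65 on the log2 scale (SE 0.274, edgeR adjusted p = 9.46e-06, 25.2-fold). Krt8 rose by 2.47 (SE 0.289, adjusted p = 0.000229, 5.53-fold). Krt7 rose by 5.43 (SE 0.543, adjusted p = 9.47e-05) and the value for Krt18 was 0.86 (SE 0.365, adjusted p = 0.0980). Since the WT level of Krt7 rests on 5 UMIs, its pooled level in i4F 1 and 2 was 54.1 times that in WT with an exact 95% interval of 23.1 to 167, which covers counting error only.

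For caerulein against WT in acinar cells, edgeR with all 7 mice called 0 of the 4 (0.0359% of all genes tested), with 4 of 4 at an unadjusted p under 0.05 (21.9% of genes) and 4 of 4 called by DESeq2 (8.66% of genes). The log2 fold changes were 3.39 for Krt19 (SE 0.556, adjusted p = 0.0610), 2.23 for Krt8 (SE 0.505, adjusted p = 0.0813), 1.98 for Krt18 (SE 0.506, adjusted p = 0.0897) and 4.11 for Krt7 (SE 1.51, adjusted p = 0.170). The i4F mice set the spread that this comparison is tested with. Without i4F 3 all 4 rose (19.4% of genes tested called, 8.36% higher), Krt19 by 3.38 (edgeR adjusted p = 5.23e-05), Krt8 by 2.22 (adjusted p = 0.000709), Krt18 by 1.97 (adjusted p = 0.00547) and Krt7 by 4.10 (adjusted p = 0.00103). The pooled Krt7 level was 23.8 times that in WT, with an exact 95% counting interval of 10.1 to 73.4.

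Between i4F and caerulein mice, edgeR called 0 of 4 in acinar cells with all mice (0.126% of genes tested), 1 of 4 at an unadjusted p under 0.05 (18.8% of genes) and 0 of 4 by DESeq2 (5.43% of genes). Without i4F 3, Krt19 was 2.42-fold higher (log2 1.27, SE 0.232, adjusted p = 0.00427) and Krt7 2.52-fold higher (log2 1.33, SE 0.330, adjusted p = 0.0177) in i4F than in caerulein mice (2 of 4 called, 22.5% of genes tested). Krt18 went the other way, at -1.12 (SE 0.366, adjusted p = 0.0535) and with every i4F mouse below both caerulein mice. Krt8 differed by 0.24 (SE 0.272, adjusted p = 0.554).

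**Figure D2:**
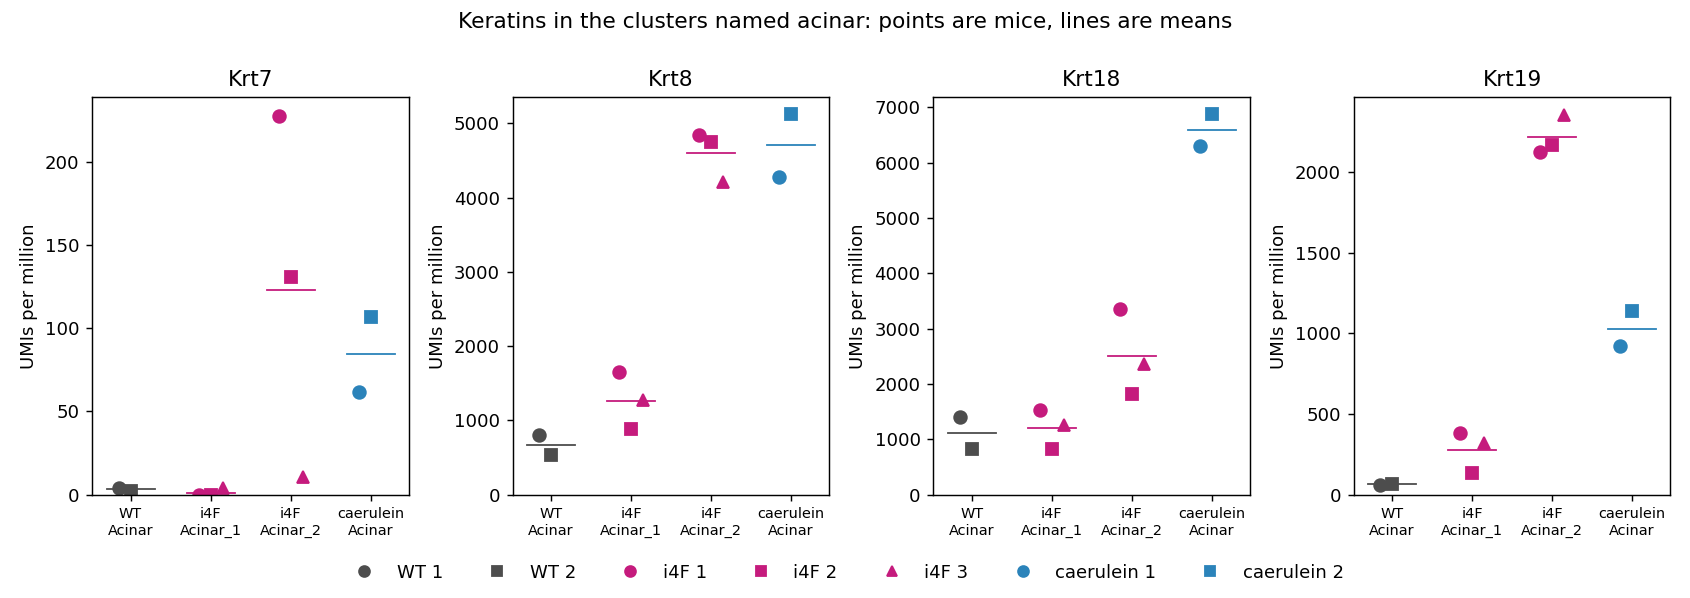
CPM (vertical axes) of the 4 keratins in the acinar clusters as deposited, with 1 point per mouse and lines at the group means. In Acinar_2 all 3 i4F mice have Krt19 between 2122 and 2349 CPM, while in Acinar_1 they lie between 132 and 385, nearer to the WT mice.

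The deposited acinar clusters, whose definition used these genes, were also read apart. In Acinar_2 Krt19 was at 2122, 2168 and 2349 CPM in i4F 1, 2 and 3, and Krt8 at 4841, 4747 and 4209. The i4F 3 mouse, whose pooled acinar value was the lowest, was the highest of the 3 for Krt19 there. Krt18 in Acinar_2 was at 3354, 1827 and 2363.5 and Krt7 at 227, 131 and 10.7, so Krt7 stayed low in i4F 3, where the cluster had 59 cells.

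In Acinar_1 Krt19 was at 385, 132 and 321 CPM and Krt8 at 1653, 879 and 1269. Both were above the WT acinar values in every i4F mouse. Krt18 was at 1538, 833 and 1262, within or near the WT range of 828 to 1396, and Krt7 at 0, 0 and 3.84. For i4F 1, Acinar_1 held 11 cells, and the summed level of 6 macrophage markers in it was 16496 CPM.

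Ductal markers in these cells were read beside the keratins. The summed level of 8 ductal markers in acinar cells was 6562 and 5291 CPM in WT mice, 43610 and 47220 after caerulein, and 13105, 5393 and 5120 in Acinar_2. Most of the caerulein sum was Clu (clusterin), at 42139 and 45493. Sox9, the duct transcription factor, was at 18.2 and 11 in WT acinar cells, 18.8 and 23.1 in caerulein acinar cells, 18.8, 9.90 and 49.98 in Acinar_2 and 196 and 204 in caerulein duct cells. Cftr, the duct chloride channel, was at 0 in both WT mice, at 1.36 and 3.30 in caerulein acinar cells, at 1.14, 0.691 and 0 in Acinar_2 and at 40.7 and 68.9 in caerulein duct cells. In Acinar_2 the sum of the 8 ductal markers was above both WT mice in i4F 1 only. A pair of other duct genes, named after their values were seen, had higher levels in both caerulein acinar cells and Acinar_2 than in WT acinar cells. The pair does not stand for the duct markers as a set. Spp1 (osteopontin) was at 166 and 116 in WT and 1115 and 1243 in caerulein acinar cells and at 897, 438 and 321 in Acinar_2, and Tspan8, a tetraspanin, at 1.3 and 0, then 10.5 and 14.5, then 85.6, 44.9 and 139. The part of duct cells or duct RNA in these acinar values was not tested.

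The keratins were also counted per cell, each cell thinned to 1000 UMIs with shallower cells left out (152 and 209 acinar cells kept in WT mice, 382, 572 and 724 in i4F mice, 1139 and 652 in the caerulein mice). A Krt19 UMI was then found in 3.95% and 5.74% of WT acinar cells, in 41.1%, 30.4% and 12.4% of i4F acinar cells and in 51.6% and 62.7% of caerulein acinar cells. Unthinned, the shares were 3.87% and 4.47%, then 55.4%, 38.2% and 14.5%, then 68.0% and 66.5%. The exact 95% intervals of the WT shares were 1.46% to 8.39% and 3.00% to 9.81%, and that of i4F 3 was 10.1% to 15.1%. Among macrophages, which should lack Krt19, the thinned share was 0% to 1.75%.

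By share of cells, caerulein acinar cells were above i4F acinar cells, although the i4F cells of mice 1 and 2 had the higher Krt19 level in CPM. The mean difference from WT was 23.1 percentage points in i4F mice (exact permutation p = 0.2) and 52.3 in caerulein mice (exact permutation p = 0.333), which are the smallest p-values that 2 against 3 and 2 against 2 mice allow. Krt8 was found in 42.1% and 30.6% of WT, 70.4%, 63.8% and 46.4% of i4F and 90.5% and 93.9% of caerulein acinar cells. Krt18 was found in 59.9% and 45%, then 73.8%, 57.9% and 57.7%, then 96.1% and 95.6%, with i4F and WT overlapping (exact permutation p = 0.6). The share of macrophages with a Krt8 UMI was 0.971% to 6.51%. Krt7 was found in 1.32% and 0.478% of WT (2 and 1 cells), 11%, 5.24% and 0.138% of i4F and 3.86% and 5.37% of caerulein acinar cells, so i4F 3 lay below both WT mice and the i4F and WT groups overlapped (exact permutation p = 0.6). At 500 and 2000 UMIs and without thinning they did not overlap (exact permutation p = 0.2 each). In macrophages the Krt7 share was 0% to 1.94%.

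Keratins were then compared from cell to cell within treated mice. Acinar cells of the 5 treated mice were divided by whether they held a Krt19 UMI at 1000 UMIs (170 with and 212 without in i4F 1, 179 and 393 in i4F 2, 97 and 627 in i4F 3, 593 and 546 in caerulein 1, 430 and 222 in caerulein 2). The thinning was drawn separately from that behind the shares above, so these numbers of cells with Krt19 differ from them. Krt8 averaged 6.01 against 2.12 UMIs per cell in i4F 1, 6.17 against 1.3 in i4F 2 and 4.19 against 0.855 in i4F 3. In caerulein 1 it averaged 4.93 against 3.54 and in caerulein 2 5.05 against 3.72. Cells with Krt19 thus had more Krt8 in 5 of 5 mice, by 2.96 ± 1.56 UMIs per cell (SD, n = 5 mice), with exact paired permutation p = 0.0625, the smallest that 5 mice allow, and Benjamini-Hochberg adjusted p = 0.0982 over 11 measures.

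Krt18 was higher in cells with Krt19 by 1.83 ± 0.440 UMIs per cell in 5 of 5 mice, and so were the epithelial adhesion genes Epcam (by 0.0900) and Cdh1 (by 0.0556), the surface gene Cd24a (by 0.288) and Clu (by 3.45). The summed UMIs of the acinar enzyme genes were lower in 5 of 5 mice, by a mean of 18.3 per cell that came mainly from the i4F mice. With against without Krt19, the sum was 9.18 against 30.88 in i4F 1, 8.82 against 42.29 in i4F 2 and 39.04 against 72.96 in i4F 3. In caerulein 1 it was 16.1 against 17.02 and in caerulein 2 11.39 against 12.74. Krt18, Epcam, Cdh1, Cd24a, Clu and the acinar sum each had exact paired permutation p = 0.0625. Krt7 was higher in 4 of 5 mice by 0.0729 (exact paired permutation p = 0.125), Spp1 (osteopontin) and Vim (vimentin) were each higher in 1 of 5, and Sox9 was higher in 3 of 5 with a mean difference near 0 (exact paired permutation p = 0.875). With cells thinned to 500 UMIs Epcam was higher in 3 of 5 mice (exact paired permutation p = 0.25) and Clu in 3 of 5 (exact paired permutation p = 0.375), and at 2000 UMIs Cdh1 was higher in 4 of 5 (exact paired permutation p = 0.125). Krt7 was higher in 3 of 5 at 500 UMIs (exact paired permutation p = 0.25) and in 5 of 5 at 2000 UMIs (exact paired permutation p = 0.0625). Krt8, Krt18 and Cd24a were higher and the acinar sum lower in 5 of 5 mice at all 3 depths. The WT mice had 4 and 9 acinar cells with a Krt19 UMI in this draw and were not tested.

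**Figure D3:**
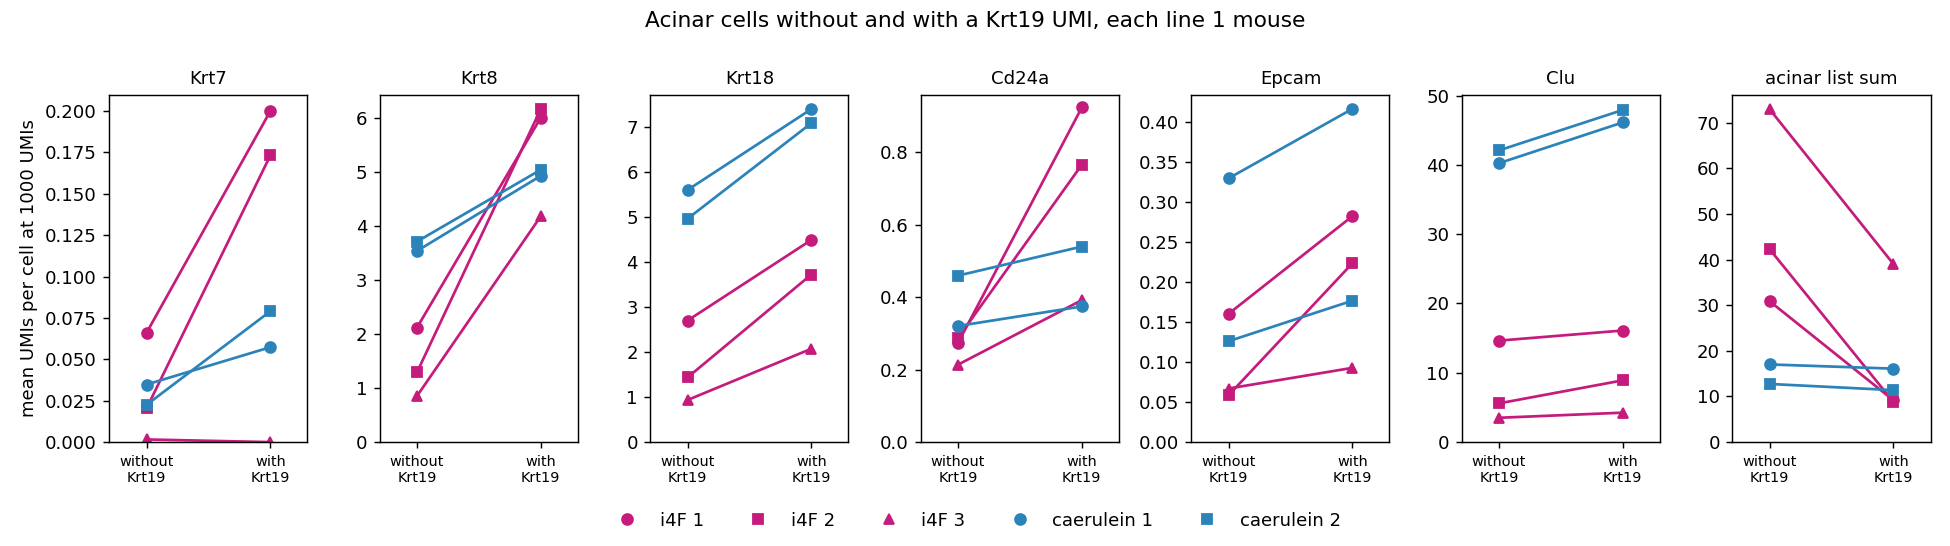
Mean UMIs per cell in acinar cells without and with a Krt19 UMI, each cell thinned to 1000 UMIs, for Krt7, Krt8, Krt18, Cd24a, Epcam, Clu and the sum of the listed acinar genes. Each line joins the cells of 1 of 5 treated mice, and the Krt8 and Krt18 lines go up in 5 of 5 while the acinar sum goes down in 5 of 5.

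The make-up of the keratin pool of acinar cells was read as the share of each gene in its UMIs. Krt19 gave 2.71% and 4.79% of the UMIs of the 4 genes in WT acinar cells, 20.1%, 24.3% and 15% in i4F acinar cells and 7.96% and 8.57% in caerulein acinar cells. Krt18 gave 61.8% and 57.9% in WT, 31.8%, 20.7% and 39.7% in i4F and 54.5% and 52.0% in caerulein. The 3 groups did not overlap in either share, and i4F 3, which stood apart in level, lay with its group in both.

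The ratio of Krt18 to Krt8 UMIs in acinar cells was 1.75 and 1.56 in WT mice, 0.693, 0.388 and 0.881 in i4F mice and 1.47 and 1.34 in caerulein mice. The i4F mean of 0.654 ± 0.249 (SD, n = 3) was below the WT mean of 1.65 ± 0.135 (n = 2) with no overlap (exact permutation p = 0.2, the smallest possible). Counting both type I chains against both type II chains, the ratio was 1.04 in i4F and 1.75 in WT acinar cells (exact permutation p = 0.2). The ratio of Krt19 to Krt18 was 0.0439 and 0.0827 in WT, 0.631, 1.17 and 0.378 in i4F and 0.146 and 0.165 in caerulein acinar cells. In duct cells the Krt18 to Krt8 ratio was 1.13 and 1.46 in WT against 1.39, 1.23 and 1.10 in i4F mice, overlapping (exact permutation p = 0.8).

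**Figure D4:**
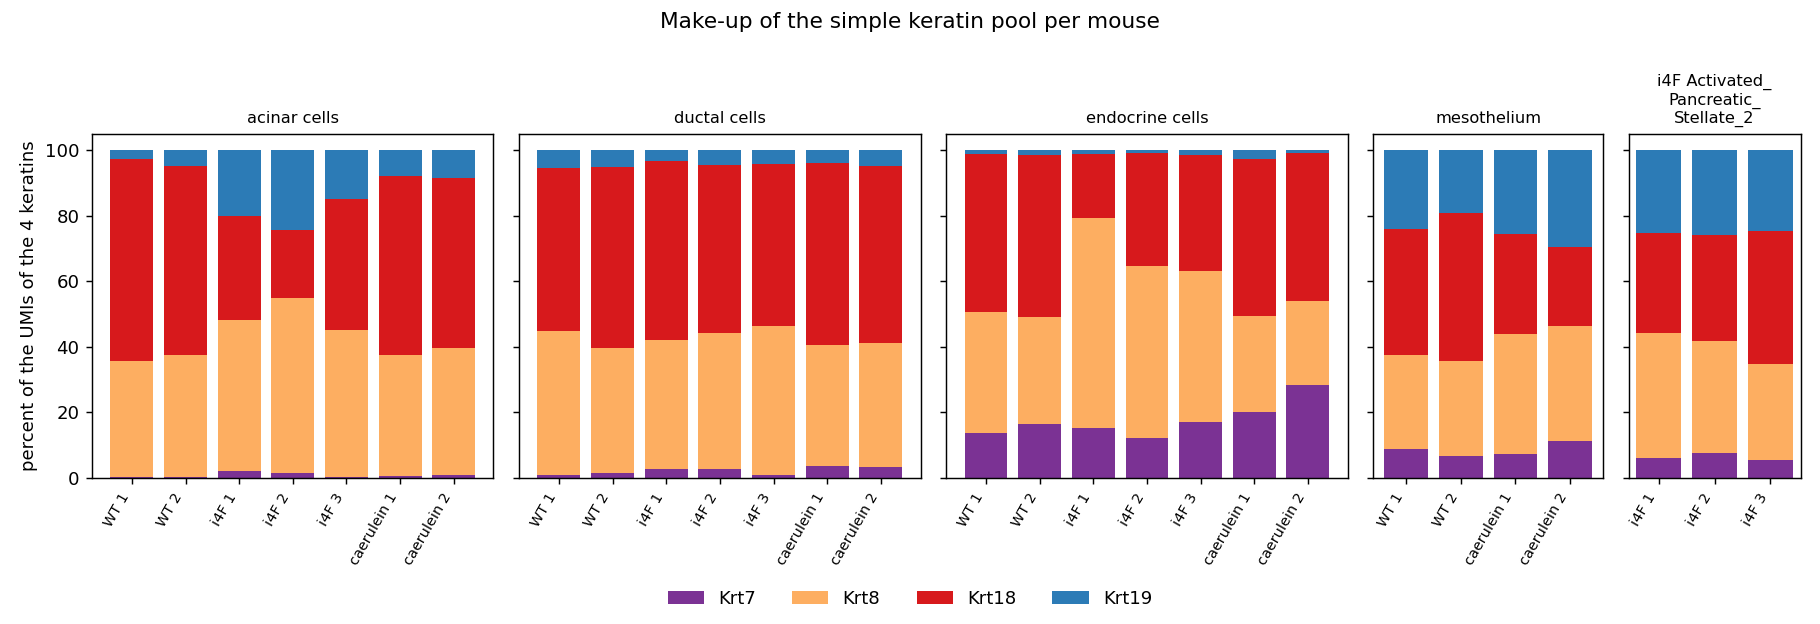
Percent of the summed UMIs of the 4 keratins given by each (stacked bars from 0 to 100, 1 bar per mouse) in acinar, ductal, endocrine and mesothelial cells and in the i4F cluster Activated_Pancreatic_Stellate_2. Krt19 takes 15% to 24.3% of the pool in i4F acinar cells against 2.71% and 4.79% in WT acinar cells, and it takes 24.7% to 26.0% in the last cluster and 19.3% to 29.7% in the mesothelium.

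In duct cells Krt7 was the keratin with the largest difference, while the fitted fold of Krt8, Krt18 and Krt19 over WT lay between 0.986 and 1.39 in both treated groups. Krt7 was at 190 and 243 CPM in WT mice, 488, 584 and 224 in i4F mice and 875 and 701 in the caerulein mice. Both caerulein mice were above all others, and i4F 3 lay between the WT mice. The share of duct cells with a Krt7 UMI at 1000 UMIs was 13.4% and 18.5% in WT, 35.5%, 35.4% and 17.7% in i4F and 49.8% and 41.3% in caerulein mice.

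With all mice, edgeR called 0 of 4 keratins in duct cells for i4F against WT (0.00861% of 11619 genes tested called). The counts were 1 of 4 at an unadjusted p under 0.05 (17.4% of genes) and 0 by DESeq2 (3.21%). For caerulein against WT it also called 0 of 4, where 3.53% of genes were called, with 1 of 4 at an unadjusted p under 0.05 (30.7% of genes) and 1 by DESeq2 (9.81%). Krt7 in caerulein mice missed the threshold narrowly, at 2.03 (SE 0.458, adjusted p = 0.0518). Without i4F 3 Krt7 rose in caerulein duct cells by 2.03 (SE 0.233, edgeR adjusted p = 0.000816, 4.08-fold; 32.2% of genes tested called) and in i4F duct cells by 1.49 (SE 0.230, adjusted p = 0.00320, 2.82-fold; 26.5% called). The other 3 keratins were called in neither comparison. This 1 of 4 is near the share of all genes called in each, so it is not read as a result about the 4 keratins.

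Krt19 in duct cells was at 1126 and 911 in WT, 609, 1033 and 1047 in i4F and 889 and 1095 in caerulein mice, all 3 groups overlapping, with log2 differences from WT of -0.02 (SE 0.271, adjusted p = 0.979) and 0.13 (SE 0.297, adjusted p = 0.781). Krt8 was at 7650, 9391 and 11357 in i4F and 8742 and 8359 in caerulein duct cells, overlapping the WT mice. Krt18 was at 10598, 11539 and 12449 in i4F and 13147 and 11830 in caerulein duct cells, above both WT mice, but its log2 differences of 0.36 (SE 0.214, adjusted p = 0.404) and 0.48 (SE 0.233, adjusted p = 0.199) did not pass.

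Whether the change in acinar cells differed from that in duct cells of the same mice was tested as an interaction with the mouse as a block. For i4F against WT, Krt19 changed by 4.34 log2 units more in acinar than in duct cells (SE 0.566, edgeR adjusted p = 0.0118), the only 1 of the 4 called, where 0.197% of genes were called. Krt8 (1.84, adjusted p = 0.0988), Krt7 (3.17, adjusted p = 0.183) and Krt18 (0.48, adjusted p = 0.583) were not called. For caerulein against WT, Krt19 (3.34, SE 0.597, adjusted p = 0.0141) and Krt8 (2.05, SE 0.522, adjusted p = 0.0428) were called, 2 of 4 where 5.42% of genes were called, and Krt18 (1.63, adjusted p = 0.0689) and Krt7 (2.13, adjusted p = 0.318) were not. Leaving out i4F 3 gave 3 of 4 for i4F (22.2% of genes) and 4 of 4 for caerulein (21.1% of genes), while leaving out WT 1, WT 2 or i4F 2 left 0 of 4 for i4F. For caerulein, 0 of 4 were left without WT 1, WT 2, caerulein 1 or caerulein 2 and 1 of 4 without i4F 2.

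The class that gave most Krt19 UMIs of a library also differed between the groups. Acinar cells gave 0.635% and 1.28% of all Krt19 UMIs in the WT libraries, 79.8%, 85.7% and 35.9% in the i4F libraries and 59.5% and 71.5% in the caerulein libraries. Duct cells gave 90.3% and 87.4% in WT, 9.52%, 7.62% and 52.2% in i4F and 24.2% and 23.1% in caerulein. In i4F 3 alone of the treated mice the duct remained the larger source. These shares depend on the number of cells recovered per class as well as on the level per cell. Over all cells of a library edgeR called 0 of the 4 keratins for i4F against WT (0% of 18340 genes called). There 1 of 4 was at an unadjusted p under 0.05 (34.8% of genes) and 1 was called by DESeq2 (23.8% of genes). It also called 0 for caerulein against WT (9.08% of genes called), with 0 at an unadjusted p under 0.05 (38.9%) and 0 by DESeq2 (30%). For i4F against caerulein it called 0 (0% of genes), with 1 at an unadjusted p under 0.05 (14.4%) and 0 by DESeq2 (5.41%). Without i4F 3, 3 of the 4 fell over all cells for i4F against WT (49.8% of genes called, 25.9% lower), Krt18 by 2.21 (SE 0.267, edgeR adjusted p = 0.00120), Krt8 by 1.48 (SE 0.379, adjusted p = 0.0176) and Krt7 by 1.02 (SE 0.149, adjusted p = 0.00224), with Krt19 at -0.14 (adjusted p = 0.783). Against caerulein, Krt18 (-1.46, edgeR adjusted p = 0.0245) and Krt7 (-0.70, adjusted p = 0.0390) were then lower in i4F mice (8.61% of genes called, 4.09% lower). In such sums fewer cells of a type and less RNA per cell cannot be told apart.

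Stellate cells, the fibroblast-like cells of the pancreas, were the 1 class tested in which keratins passed with all 7 mice. The class pools the clusters of that name, which differ between conditions. In WT mice it holds Activated_Pancreatic_Stellate (114 and 161 cells), led by Acta2, Tagln, Myh11 and Myl9, genes known from smooth muscle, which i4F and caerulein mice have as a separate cluster. In WT 1 that cluster gave 7 of the Krt7 and 32 of the Krt19 UMIs of stellate cells, each from 2 cells. Krt19 was at 9.74 and 2.41 CPM in WT, 19.0, 24.1 and 75.5 in i4F and 3.19 and 3.99 in caerulein stellate cells. Krt7 was at 1.87 and 0.767 in WT, 4.11, 5.53 and 16.8 in i4F and 0.466 and 0.932 in caerulein stellate cells. The i4F mice were above all others for both genes, with i4F 3 the highest, at levels far below those of duct cells. Krt19 in macrophages of the same i4F mice was at 12.5, 16.1 and 19.4, and in their endothelial cells at 18.2, 45.3 and 57.2, against 16.7 and 3.25 in WT and 8.39 and 6.35 in caerulein endothelial cells. The part of free RNA in the stellate values was not tested.

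For i4F against WT, Krt19 rose by 2.93 (SE 0.810, edgeR adjusted p = 0.0451) and Krt7 by 2.91 (SE 0.809, adjusted p = 0.0460) in stellate cells, 2 of 4 where 20.6% of 14818 genes were called in either direction and 12% higher. At an unadjusted p under 0.05 there were 2 (40.8% of genes), and DESeq2 called 2 (26.7%). Krt8 (0.95, adjusted p = 0.30) and Krt18 (0.77, adjusted p = 0.469) were not called. Both calls were kept without i4F 3 (Krt19 2.08, adjusted p = 0.0117, and Krt7 2.10, adjusted p = 0.00902, where 47.8% were called) and were lost when any 1 of the other 6 mice was left out. The 2 of 4 called without i4F 3 are near the share of all genes called. That count is not read as a result about the keratins. Without the WT cluster led by smooth muscle genes, an alternative chosen after the data were seen, Krt19 was at 3.77 (edgeR adjusted p = 0.0255) and Krt7 at 3.64 (adjusted p = 0.0325).

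The keratin UMIs of i4F stellate cells lay largely in 1 deposited cluster, Activated_Pancreatic_Stellate_2, with 144, 126 and 1167 cells in i4F 1, 2 and 3. In it Krt19 was at 769, 735 and 97.7 CPM, Krt8 at 1159, 965 and 116, Krt18 at 942, 907 and 160 and Krt7 at 188, 217 and 21.8. In i4F 1 and 2 Krt8 overlapped the WT mesothelium, while Krt7, Krt18 and Krt19 lay below both WT mice there, and no i4F cluster was named mesothelium. The 11 mesothelial markers, among them Msln (mesothelin) and Upk3b, summed to 4162, 4592 and 850 CPM in that cluster, against 5812 and 5610 in WT and 2426 and 4455 in caerulein mesothelium.

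At least 1 mesothelial UMI was found in 70.8%, 59.5% and 8.40% of the cells of that cluster, and those cells held 98.9%, 98.5% and 84.8% of its Krt19 UMIs and 100%, 99.2% and 84.8% of its Krt7 UMIs. Among them Krt19 was at 857, 892 and 932 CPM, Krt7 at 212, 265 and 208, Krt18 at 1051, 1112 and 1055 and Krt8 at 1290, 1173 and 598, so Krt8 was lower in i4F 3. In i4F 3 those cells held 45.7% of the Krt8 and 58.4% of the Krt18 UMIs of the cluster, against 98.7% to 99.6% in i4F 1 and 2. Leaving out this cluster turned the stellate difference of Krt7 from 2.91 to -0.88 and leaving out all stellate cells with a mesothelial UMI turned it to -0.24. That of Krt19 kept its sign, going from 2.93 to 0.29 (adjusted p = 0.655, edgeR) and 0.74 (adjusted p = 0.416), and neither keratin was then called. In the second of these settings a mesothelial UMI is a UMI of Msln, Upk3b, Upk1b or Lrrn4 only. Both settings were chosen after the data were seen.

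In the mesothelium named in WT and caerulein mice, Krt19 was at 595 and 860 CPM after caerulein and Krt7 at 170 and 325, overlapping WT for both. Krt8 at 846 and 1016 and Krt18 at 709 and 697 were below both WT mice. No test was run on this class.

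Endocrine cells of the islets had Krt7 at 228 and 224 CPM in WT, 337, 361 and 320 in i4F and 250 and 297 in caerulein mice, with the treated mice above WT but not called. Krt8 was at 625 and 441 in WT, 1436, 1575 and 866 in i4F and 361 and 266 in caerulein mice. All i4F mice were above and both caerulein mice below WT for Krt8. In WT mice the class pools 2 deposited clusters, while i4F and caerulein mice each have 1. Krt8 in WT 1 and WT 2 was at 671 and 751 in the first of them (56 and 90 cells) and at 594 and 245 in the second (44 and 89 cells). This class was tested after the data were seen, and edgeR called 0 of 3 keratins tested for i4F against WT (0.727% of 3437 genes called), with 2 of 3 at an unadjusted p under 0.05 (13.5% of genes), 1 by DESeq2 (2.3%) and Krt8 at 1.24 (SE 0.305, adjusted p = 0.113).

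Without i4F 3 Krt8 rose by 1.45 in endocrine cells (SE 0.267, edgeR adjusted p = 0.0198, 1 of 3 called where 6% of genes were called). Krt19 stayed at 10.2 to 34.9 CPM in endocrine cells of all mice and was not among the genes tested. The Krt18 to Krt8 ratio was 1.3 and 1.53 in WT, 0.305, 0.659 and 0.768 in i4F and 1.65 and 1.77 in caerulein endocrine cells, the i4F mice below WT as in acinar cells (exact permutation p = 0.2). In macrophages edgeR called 0 of 4 for i4F (0.00828% of genes called), with 2 at an unadjusted p under 0.05 (19.9% of genes) and 0 by DESeq2 (5.09%). It called 0 of 4 for caerulein (5.66%), with 1 at an unadjusted p under 0.05 (27.6%) and 1 by DESeq2 (13.7%). In endothelial cells it called 0 of 3 tested for i4F (0.81%), with 1 at an unadjusted p under 0.05 (18.2%) and 0 by DESeq2 (3.58%). It called 0 of 3 for caerulein (4.11%), with 0 at an unadjusted p under 0.05 (20%) and 0 by DESeq2 (5.39%).

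The remaining comparisons gave 0 keratins called by edgeR with all mice. For caerulein against WT the share of genes called was 17.1% in stellate cells, where 0 keratins were at an unadjusted p under 0.05 (39.1% of genes) and 0 were called by DESeq2 (24.8%). In endocrine cells it was 1.13%, with 0 (8.93%) and 0 (1.95%) in the same order. For i4F against caerulein it was 0.387% in ductal cells, with 0 (16.9%) and 0 (2.34%), and 0.459% in stellate cells, with 2 (17%) and 2 (5.45%). It was 0.601% in endothelial cells, with 1 (10%) and 0 (1.46%), 0.0582% in endocrine cells, with 1 (7.94%) and 1 (1.07%), and 1.67% in macrophages, with 1 (22.2%) and 1 (8.99%). Of these, Krt8 in endocrine cells came nearest the threshold, 3.90-fold higher in i4F than in caerulein mice (log2 1.97, SE 0.333, edgeR adjusted p = 0.0537).

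Without i4F 3, i4F against caerulein gave Krt7 (2.93, edgeR adjusted p = 0.0131) and Krt19 (2.59, adjusted p = 0.0209) higher in stellate cells (11.5% of genes called), Krt19 higher in macrophages (1.29, adjusted p = 0.0340, 10.1% called) and Krt8 higher in endocrine cells (2.17, adjusted p = 0.0356, 0.13% called). It gave 0 in ductal (3.23% called) and endothelial cells (0.911% called). For i4F against WT, 0 were called in endothelial cells (14.3% called) and in macrophages (12.4% called), where Krt19 was at 1.44 (adjusted p = 0.0652). In caerulein macrophages Krt7 fell by 2.40 (edgeR adjusted p = 0.0377, 16.4% called), from a WT level that rests on 4 and 8 UMIs, 3 and 4 of them in Macrophages_2, in a class that should lack it. With all mice 0 were called for caerulein against WT, over the whole class as over Macrophages_1 alone. The fit without i4F 3 was not run on Macrophages_1 alone, so the part of Macrophages_2 in that call was not tested.

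Of the 42 other keratin genes listed, 10 were tested in acinar cells, and those of stratified and cornified epithelia were found in i4F 1 and i4F 2. Krt13, the type I keratin of inner squamous linings, was at 887, 836 and 16.6 CPM in i4F mice, at 0 in both WT mice and at 0.170 and 0 in the caerulein mice. Krt16, induced in wounded skin, was at 572, 500 and 0.693 in i4F, 1.3 and 0 in WT and 0.339 and 0.413 in caerulein mice. Krt6a, its usual partner, was at 541, 495 and 0.346 in i4F mice, and 0 and 11 in WT mice. None of the 3 passed 16.6 CPM in i4F 3 or in the mice of the other groups.

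Krt17 was at 9.12 and 23.2 CPM in WT, 495, 131 and 13.2 in i4F and 12.2 and 12.4 in caerulein acinar cells, and Krt14, the basal-cell keratin, at 0 and 12.2, then 272, 140 and 0, then 3.73 and 0.413. Krt20, known from gut and urothelium, was at 106, 68.9 and 3.12 in i4F mice and 7.13 and 8.67 in caerulein mice, and at 0 in both WT mice. With all mice edgeR called 0 of 10 for i4F against WT (0.0808% of all genes called), with a median of 4.90 against 0.144 over all genes. At an unadjusted p under 0.05 there were 6 of 10, against 25.1% of all genes. Without i4F 3, where 32.7% of all genes tested were called and 17.3% called higher, it called 8 of 10 higher, namely Krt6a, Krt6b, Krt13, Krt14, Krt16, Krt17, Krt20 and Krt80, with Krt17 at 3.91 (SE 0.668, adjusted p = 0.00187). For most of the others the WT mice had 0 or few UMIs, so no fold is given.

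After caerulein, edgeR without i4F 3 called Krt20 higher (adjusted p = 0.0248) and Krt6a lower (adjusted p = 0.0132), the latter resting on WT 2 alone, and with all mice 0 of 10. These 2 of 10 are near the share of all genes called in that fit, 19.4%. In duct cells 4 of the other keratins were tested. Krt17 was at 1659 and 693 CPM in WT and 476 and 427 in caerulein, Krt23 at 445 and 310 against 164 and 145, and Krt80 at 140 and 109 against 27.0 and 29.5. The caerulein mice lay below the WT mice for all 3. Without i4F 3 Krt17 fell by 1.19 (edgeR adjusted p = 0.0457), Krt23 by 1.11 (adjusted p = 0.0106) and Krt80 by 1.98 (adjusted p = 0.00268) after caerulein, and in i4F mice Krt23 fell by 0.99 (adjusted p = 0.0188) and Krt80 by 1.47 (adjusted p = 0.00984). These are 3 of 4 where 32.2% of all genes were called for caerulein and 2 of 4 where 26.5% were called for i4F. With all mice 0 were called in duct cells, where edgeR called 3.53% of all genes for caerulein and 0.00861% for i4F. After caerulein 3 were at an unadjusted p under 0.05, against 30.7% of all genes.

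**Figure D5:**
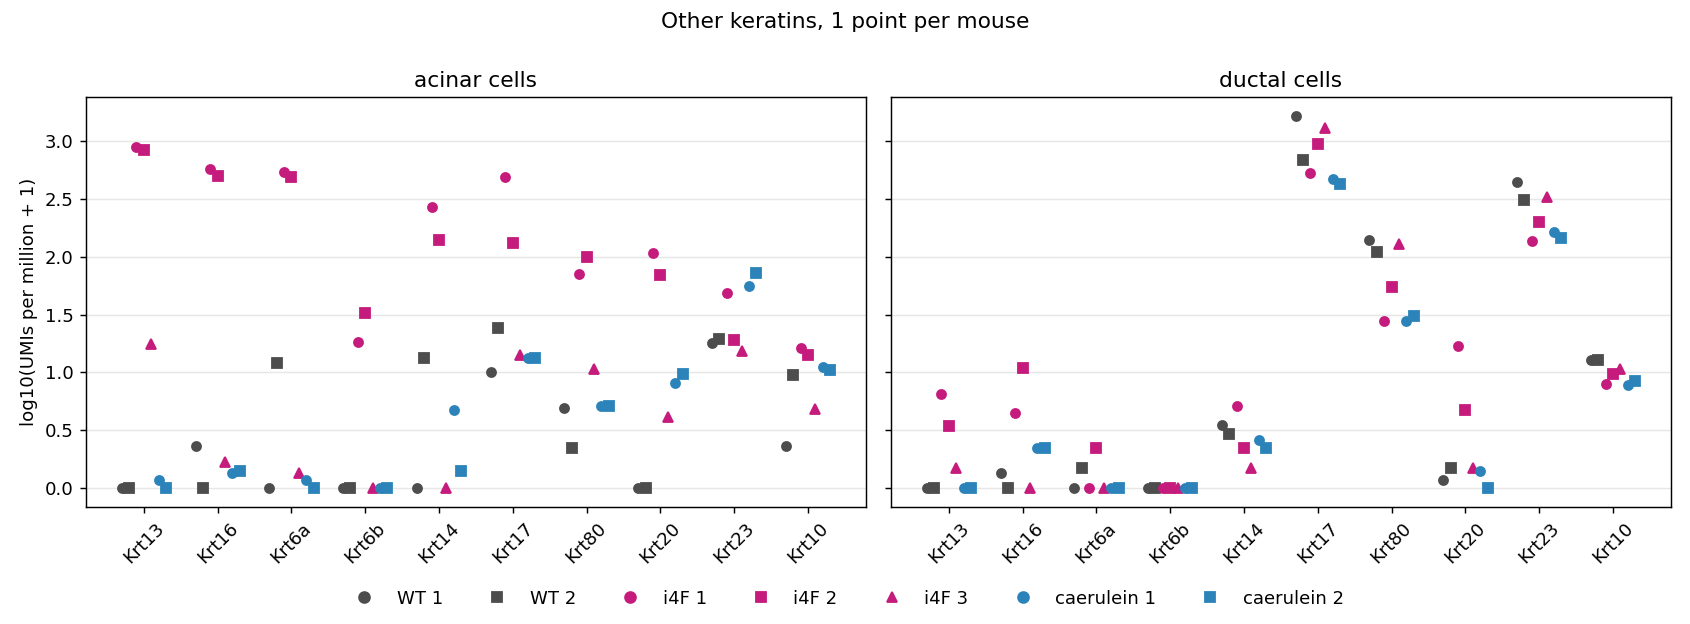
Levels of 10 other keratins in acinar and ductal cells, as log10 of CPM plus 1 (log scale), 1 point per mouse coloured by group. Krt13, Krt16, Krt6a and Krt14 stand above 100 CPM in acinar cells of i4F 1 and i4F 2, while i4F 3 has at most 16.6 CPM of any of these 4.

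Genes whose products work with simple keratins were read from 6 lists. In acinar cells with all mice, 25.1% of all genes tested were at an unadjusted p under 0.05 for i4F and 21.9% for caerulein. Without i4F 3, edgeR called 32.7% of genes for i4F (17.3% higher) and 19.4% for caerulein (8.36% higher), and the counts of the lists are read against these. Among genes of epithelial junctions, 0 of 14 tested were called in acinar cells for i4F against WT with all mice by edgeR (10 at an unadjusted p under 0.05), with a median log2 fold change of 1.61 against 0.144 over all genes. Without i4F 3, 10 of 14 rose and 0 fell, among them Cldn4 (claudin 4) by 4.82 (SE 0.337, adjusted p = 2.45e-05). Cldn4 was at 10.4 and 11 CPM in WT, 437, 342 and 59.6 in i4F and 448 and 644 in caerulein acinar cells. For caerulein 0 of 14 were called with all mice (7 at an unadjusted p under 0.05) and 7 of 14 rose without i4F 3, Cldn4 by 5.06 (adjusted p = 2.59e-05) and Epcam by 2.17 (adjusted p = 0.0166).

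Of 13 desmosome and keratin-linker genes, 0 were called for i4F with all mice by edgeR (6 at an unadjusted p under 0.05) and 7 rose without i4F 3. Desmoplakin (Dsp), which ties keratin filaments to desmosomes, rose by 4.10 (SE 0.296, adjusted p = 2.47e-05), from 7.82 and 8.56 CPM in WT to 169 and 196 in i4F 1 and 2, with 32.2 in i4F 3. For caerulein the count was near the background, with 2 of 13 higher without i4F 3 where 19.4% of all genes were called and 8.36% called higher, Dsp by 1.71 (adjusted p = 0.00464) and Pkp2 (plakophilin 2) by 1.31 (adjusted p = 0.0481), and 0 with all mice (2 at an unadjusted p under 0.05). Of 6 other filament genes tested, 0 were called with all mice (3 at an unadjusted p under 0.05 for i4F, 2 for caerulein), and the lamins Lmnb1 (3.85, adjusted p = 0.00579) and Lmna (1.82, adjusted p = 0.000612) rose in i4F and Lmnb1 (3.81, adjusted p = 0.00995) and nestin (2.11, adjusted p = 0.00130) in caerulein acinar cells without i4F 3. In that fit 32.7% of all genes were called for i4F and 19.4% for caerulein, so the 2 genes named for each of these are not read as a result about the list.

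Of 22 partners and regulators of simple keratins, Sfn (14-3-3 sigma) was the 1 called for i4F with all mice, at 5.14 (SE 0.628, edgeR adjusted p = 0.0450). It was at 36.5 and 17.1 CPM in WT, 1441, 1583 and 386 in i4F and 209 and 234 in caerulein acinar cells, the groups in 3 separate ranges. Without i4F 3, 8 of 22 rose and 1 fell in i4F mice, with the epithelial factors Klf5 at 4.08 (adjusted p = 0.00485) and Ehf at 3.34 (adjusted p = 0.000203), and the chaperone Hspa5 fell by 1.88 (adjusted p = 0.00301). For caerulein 0 of 22 were called with all mice (6 at an unadjusted p under 0.05), and without i4F 3 4 rose, Klf5 by 4.45 (adjusted p = 0.00418) and Sfn by 2.45 (adjusted p = 0.000895) among them, and 4 fell.

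The duct and acinar gene lists went with the keratins in part. Of 17 ductal genes tested 0 were called for i4F with all mice by edgeR (4 at an unadjusted p under 0.05), and without i4F 3, 9 rose and 2 fell, with Muc1 among those that fell, at -1.84 (adjusted p = 0.000375). For caerulein 0 of 17 were called with all mice (6 at an unadjusted p under 0.05) and 6 rose without i4F 3, Anxa2 by 3.02 (adjusted p = 0.000357). Of 17 acinar genes 0 were called in either contrast with all mice (4 and 11 at an unadjusted p under 0.05), 16 fell in i4F and 14 in caerulein mice without i4F 3, Serpini2, a serpin of acinar cells, by 5.49 (adjusted p = 2.45e-05) and 8.53 (adjusted p = 1.48e-05).

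Across 92 profiles, each 1 deposited cluster in 1 mouse, the genes whose level was most like that of each keratin were found among 12817 genes by Pearson r of log2(CPM + 1). The profiles share mice, clusters and depth, so r is a description. Krt8 and Krt18 were most like each other (r = 0.962), and Krt8 and Krt19 had r = 0.877, whereas Krt7 and Krt19 had r = 0.656. Krt7 had r = 0.828 with Krt8 and 0.789 with Krt18, and Krt18 and Krt19 had r = 0.835. For Krt8 the nearest other genes were Cldn3 (0.918), Fxyd3 (0.917), Cxadr (0.907), Cldn4 (0.868) and Clu (0.868). For Krt18 they were Cldn3 (0.885), Fxyd3 (0.884), Clu (0.883), Cxadr (0.871) and Sdsl (0.855).

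For Krt19 the nearest genes outside the 4 keratins were Cxadr (0.811), Clu (0.810), Epn3 (0.809), Ifi27l2b (0.794) and Sprr1a (0.793), the last a cornified-envelope gene. For Krt7, likewise outside the 4, they were Cgn (cingulin, 0.883), Bex4 (0.874), Bex1 (0.848), Cxadr (0.845) and Capsl (0.840), the Bex genes being known from neuroendocrine cells. Cxadr, an adhesion protein of epithelial junctions, was among the 5 nearest other genes of all 4 keratins, and with a pseudocount of 10 among those of Krt8, Krt18 and Krt19 but not of Krt7.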

How the data were processed

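Single-cell RNA-seq of 7 mouse pancreata (2 WT, 3 i4F and 2 caerulein mice) was analysed from 3 deposited tables of UMI counts, 1 per group, with the cluster name of each cell and its percent of mitochondrial UMIs. The authors aligned reads with Cell Ranger to mm10 and kept cells with 150 genes or more and mitochondrial UMIs up to 5% (the highest percent in the deposited tables is 4.99653). They corrected for ambient RNA with SoupX, normalised with SCTransform and clustered each condition by itself in Seurat (20 principal components, resolution 0.2), naming clusters by hand from their markers. The sources used here do not state if the deposited whole-number counts were taken before SoupX or after it. 0 columns belonged to other series.

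UMI counts were summed per mouse and cell class (at least 20 cells per mouse) and tested with edgeR 4.0.16 in R 4.3.3 (filterByExpr, TMM, quasi-likelihood test, two-sided, all 7 mice in 1 fit of 3 groups, Benjamini-Hochberg over all genes tested, threshold 0.05), checked first on simulated counts. In that check on acinar cells, i4F against WT, the test recovered 0% of 2-fold, 20% of 4-fold, 62% of 8-fold and 76% of 16-fold planted changes. It made 5 false calls. A gene that was not called with all mice may therefore still differ. DESeq2 1.42.0 was an alternative. The acinar against ductal difference was tested with the mouse as a block. A mouse was 1 library, so p-values measure the spread between mice. Shares of cells were taken after thinning each cell to 1000 UMIs, leaving out shallower cells, and compared by exact permutation tests over mice. Exact (Clopper-Pearson) 95% intervals cover counting error only. Doublets were not called, and cells with markers of another class were left out as an alternative. Precision is limited by 2 or 3 mice per group and, in WT acinar cells, by shallow cells.

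The members, gene lists and markers were chosen with earlier results of these data known. Named genes are the 4 keratins everywhere, other keratins with at least 100 UMIs, up to 3 genes per list and direction with the largest change among those called without overlap between groups, and the 5 genes per keratin with the most similar pattern. Some genes that this rule names are not reported here. A few genes outside this rule (duct markers, cluster-leading genes, Krt14, Krt76 and Krt83 by cluster) were named after their values were seen.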

Additional observations from a re-analysis of the deposited data

Results flagged for a closer look

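A test of the difference itself compared acinar cells with duct cells of the same mice. For i4F against WT it called Krt19 alone of the 4 keratins, where 0.197% of genes were called. For caerulein against WT it called Krt19 and Krt8, where 5.42% of genes were called. All of these calls were lost when WT 1 or WT 2 was left out. Those for caerulein were also lost without caerulein 1 or caerulein 2, and that for i4F without i4F 2. Krt19 changed by 4.34 log2 units more in acinar than in duct cells for i4F against WT (edgeR with the mouse as a block, SE 0.566, adjusted p = 0.0118), with every i4F mouse above both WT mice in acinar cells, while the groups overlapped in duct cells. In i4F 1 and 2, 583 of 594 and 746 of 807 cells named acinar were of the cluster Acinar_2, whose leading genes go against that name. For caerulein against WT the difference was 3.34 for Krt19 (SE 0.597, adjusted p = 0.0141) and 2.05 for Krt8 (SE 0.522, adjusted p = 0.0428), with both caerulein mice above both WT mice in acinar cells. Acinar cells of WT mice were shallower than those of treated mice, while the median of duct cells was 5396 and 4624 UMIs in WT and 2667 to 5590 in treated mice. Over cells with at least 500 genes the Krt19 difference was 4.35 for i4F (edgeR adjusted p = 0.00381) and 3.23 for caerulein (adjusted p = 0.0135). That of Krt8 for caerulein was 1.94 (adjusted p = 0.0535). These differences were not fitted at equal UMIs, so the part of depth was not tested beyond this.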

How the results depend on the processing

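Of 1177 alternatives over all results, 929 kept direction and call, 81 were called only under the alternative, 32 lost the call, 42 changed sign and in 93 a count or value moved. For shares of cells and for acinar cells with against without Krt19, the exact tests cannot reach the threshold with so few mice. Their call could not change, so those among the 929 show a kept direction only. The 929 is therefore not read as a measure of how stable the calls are. The numbers shared by mice of different groups did not pair them (correlation of deviations -0.347 to 0.066). Only i4F 3 has the number 3, so within a class the replicate block gives that mouse a term of its own. Counts with the block are therefore not independent of those without i4F 3. Among the alternatives, the share of all genes called was computed only for DESeq2 and for leaving out i4F 3. Counts under the other settings thus have no background to be read against. The counts of the 4 keratins called were as follows, each 0 with the settings of the report unless said. In acinar cells, i4F against WT, they were 3 with DESeq2, 3 without the filter on low counts, 3 with the replicate block, 1 at equal UMIs per mouse, 1 over cells with at least 500 genes, 1 without mixed-marker cells and 3 with Acinar_2 alone. For caerulein they were 4 with DESeq2, 4 without the filter, 4 with only the 2 groups compared, 4 with the replicate block, 2 without mixed-marker cells, 4 with Acinar_2 alone and 3 with Acinar_1 alone. For i4F against caerulein they were 3 with the replicate block, 2 with Acinar_2 alone and 1 with Acinar_1 alone. In ductal cells the count was 1 for i4F without the filter or with the replicate block, and 1 for caerulein with DESeq2, without the filter, with the 2 groups alone, with the block, over cells with at least 500 genes and without mixed-marker cells. In all cells, i4F against WT, it was 1 without TMM, 1 with DESeq2 and 3 with the block.

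In stellate cells, i4F against WT, 2 in the report, it was 0 with the 2 groups alone, with a term for the library series, without the cluster Activated_Pancreatic_Stellate_2 and without cells holding a mesothelial UMI. For i4F against caerulein it was 2 with DESeq2, 4 without the filter and 1 with the block. In endothelial cells it was 2 (i4F against WT) and 1 (against caerulein) without the filter. In macrophages it was 1 for i4F without the filter or with Macrophages_1 alone, 1 for caerulein with DESeq2, without the filter, with the 2 groups alone or with the block, and 1 for i4F against caerulein with DESeq2, without the filter or with Macrophages_1 alone. In endocrine cells it was 1 for i4F with DESeq2, without the filter or with the block, and 1 for i4F against caerulein with these, at equal UMIs or without mixed-marker cells. The acinar against ductal difference gave 3 (i4F, 1 in the report) and 4 (caerulein, 2 in the report) without the filter, and for caerulein 1 over cells with at least 500 genes and 1 with the replicate block.

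Leaving out 1 mouse gave 0 to 3 in all cells (i4F), 0 to 2 (i4F against caerulein), 0 to 3 (i4F), 0 to 4 (caerulein) and 0 to 2 (i4F against caerulein) in acinar cells, 0 to 1 for i4F and for caerulein in ductal cells, 0 to 2 for i4F against WT and against caerulein in stellate cells, 0 to 1 in macrophages (caerulein, and i4F against caerulein) and in endocrine cells (i4F against both), and 0 to 3 (i4F) and 0 to 4 (caerulein) for the difference.

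The sign of a log2 fold change turned in few cases. In acinar cells, i4F against caerulein, Krt7 went from 0.78 to -3.77 and Krt19 from 0.94 to -1.44 with Acinar_1 alone, and Krt8 from -0.01 to 0.24 with the replicate block, 0.11 over cells with at least 500 genes and 0.18 with Acinar_2 alone. In ductal cells Krt19 for i4F went from -0.02 to 0.023 (DESeq2), 0.027 (2 groups alone), 0.018 (at least 500 genes) and 0.18 (without mixed-marker cells), and for caerulein from 0.13 to -0.041 without TMM. In stellate cells, i4F against WT, Krt7 turned to -0.88 without that cluster and -0.24 without cells holding a mesothelial UMI, Krt8 to -0.64 without the cluster, and Krt18 to -0.21 with the block, -0.74 without the cluster and -0.34 without those cells. Leaving out 1 mouse gave ranges of -0.075 to 1.33 (Krt7) and -0.20 to 0.24 (Krt8) in acinar cells for i4F against caerulein, -0.13 to 0.21 for Krt19 in i4F ductal cells, -0.31 to 1.67 for Krt18 in i4F stellate cells and -0.41 to 0.14 for Krt18 in i4F endocrine cells.

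Differences in the share of ductal cells with a UMI, in percentage points, turned for Krt8 (i4F, -0.748) to 0.870 at 500 UMIs, for Krt18 (i4F, -0.0591) to 0.392 at 500 UMIs and 0.780 without thinning, for Krt18 (caerulein, -0.443) to 1.48 at 500 UMIs and 1.18 without thinning, and for Krt19 (caerulein, 2.04) to -0.639 at 500 UMIs, -0.208 at 2000 UMIs and -2.93 without thinning. Leaving out 1 mouse gave -0.646 to 0.788 (Krt8, caerulein), -0.163 to 0.0986 (Krt18, i4F), -7.70 to 0.308 (Krt19, i4F) and -1.48 to 5.56 (Krt19, caerulein). Sox9 in cells with against without Krt19 turned from -0.000551 to 0.00929 at 2000 UMIs and ranged from -0.00522 to 0.00611 without 1 mouse. The cause was not tested. Depth limits Krt7 in WT acinar cells, with 3 and 2 UMIs, and all shares in cells under 1000 UMIs.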

Other observations

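Keratins outside the simple epithelial set also turned up in cells that are not epithelial by name. Krt14, the basal-cell keratin, was at 86.0, 50.6 and 17.8 CPM in the i4F cluster Activated_Pancreatic_Stellate_1 (3655, 1145 and 18 UMIs) and at 547, 416 and 1.65 in Activated_Pancreatic_Stellate_2 of i4F 1, 2 and 3. In the stellate clusters of WT and caerulein mice Krt14 was at 0 to 2.30 CPM, and in the mesothelium it was at 310 and 99.6 in WT and 82.5 and 271 in caerulein mice. Krt76 was at 7.83 and 68.4 CPM in WT and 46.1 and 20.3 in caerulein mesothelium. Krt83, a keratin of hair, was at 186 and 81.3 CPM in the WT cluster of NK and T cells (34 and 19 UMIs) and at 46.4, 33.0 and 41.2 in the i4F cluster of those cells. These genes were chosen after their values were seen, and no test was run on them.

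Detection of Krt8 beside Krt19 was compared in the same acinar cells at 1000 UMIs. A Krt8 UMI was found in 93.6%, 93.7% and 78.9% of cells with a Krt19 UMI and in 54.2%, 50.8% and 41.8% of cells without one in i4F 1, 2 and 3. In caerulein 1 and 2 the shares were 96.4% and 95.6% with Krt19 and 84.2% and 90.9% without it. Krt8 was near its ceiling in caerulein cells, and the i4F cells come from 2 clusters, so the gaps are not compared between groups.

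In duct cells of i4F mice other filament genes were read beside the keratins. With all mice edgeR called none of the next 3 genes, where 0.00861% of genes were called for i4F and 3.53% for caerulein. For i4F against WT, Des was at 2.48 (adjusted p = 0.190), Vim at 1.25 (adjusted p = 0.336) and Eppk1 at -0.69 (adjusted p = 0.461), and for caerulein against WT they were at 1.51 (adjusted p = 0.164), 0.82 (adjusted p = 0.413) and -1.55 (adjusted p = 0.113). Without i4F 3, where 26.5% of genes were called for i4F and 32.2% for caerulein, Des (desmin) rose by 2.89 (SE 0.496, edgeR adjusted p = 0.00505) and Vim (vimentin) by 1.70 (SE 0.310, adjusted p = 0.00630), while Eppk1, the keratin-binding epiplakin, fell by 1.51 (SE 0.218, adjusted p = 0.00239). After caerulein Eppk1 also fell, by 1.55 (adjusted p = 0.00165), and Des at 1.54 (adjusted p = 0.0601) and Vim at 0.82 (adjusted p = 0.0703) did not pass. The summed level of 9 stellate and fibroblast markers in duct cells, all 9 above 0 in every mouse, was 999 and 1073 CPM in WT, 3876, 1841 and 411 in i4F and 2239 and 2296 in caerulein mice, and its part in these differences was not tested.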
